A study of Mus musculus with 12 samples.

Results

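The comparison described here was that of a high-fat diet (HFD) with a control diet (NCD) in mice that had all spent their last 24 h at 4 °C. It comprised 6 of the 12 samples of the series, 3 libraries on HFD and 3 on NCD, and every gene that passed a filter on low counts was tested. The mice were wild type C57BL/6N, 20 weeks old. All had eaten chow up to 8 weeks of age, after which the HFD mice received HFD for 12 weeks, while the NCD mice stayed on control diet. The other 6 libraries, from mice of both diets kept at 22 °C, entered the model for its estimate of the spread, and they gave the diet difference without cold that is set beside the result in the cold. Total RNA was sequenced from iBAT, the brown fat pad that the study's methods describe as interscapular, whereas the design text of the series calls it inguinal. Sex is not given in the sources used here. The tissue was a whole fat pad, so that fewer cells of a type and less RNA per cell cannot be told apart in any value below.

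Brown adipocytes burn fatty acids and glucose to make heat through the uncoupling protein Ucp1. They also build fatty acids of their own: glucose is broken down to pyruvate and then to mitochondrial citrate, citrate is carried to the cytosol and split to acetyl-CoA, and acetyl-CoA carboxylase and fatty acid synthase join acetyl units to a fatty acid. The genes of this route are known to be driven by the transcription factors SREBP-1c (Srebf1) and ChREBP (Mlxipl) and to respond to insulin and carbohydrate, and in brown fat the route is known to run alongside fatty acid oxidation during cold exposure.

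In the cold, HFD mice had lower levels of 12 of 16 genes that build fatty acids and 14 of 21 that build cholesterol. Lower too were 14 of 38 genes of glucose uptake, glycolysis and pyruvate oxidation, among them the inhibitory kinase gene Pdk1. Of the serine synthesis genes, Phgdh and Psat1 were higher and Psph was lower. The stress hormone gene Gdf15, the creatine kinase gene Ckb, and Gpnmb and Lgals3 were also higher, while Ucp1 did not pass the test. Gdf15 no longer passed it without HFD replicate 1 or without any 1 of the NCD libraries at 4 °C. Of 16737 genes tested, 345 were higher and 450 lower on HFD at 4 °C, at a Benjamini-Hochberg adjusted p under 0.05 in edgeR's quasi-likelihood test and an absolute log2 fold change over 0.5, which is what "called", "rose" and "fell" mean below. That is 4.75% of the genes tested, 2.06% higher and 2.69% lower. Of the called genes, 184 rose and 190 fell by more than a log2 fold change of 1, and 25 and 22 by more than 3. The 3 and 3 libraries did not overlap, in CPM (counts scaled to equal, TMM-normalised library totals), for 794 of the 795 called genes, the exception being Ccdc144b, while 25.2% of all tested genes showed no overlap. The median log2 fold change of all tested genes was 0.02. When each of the 12 libraries was left out in turn, 180 of the 795 (22.6%) stayed called in all 12 fits, 72 of them higher and 108 lower. All 795 kept their direction, but the lack of overlap in 794 of them all but fixed this beforehand, so it does not measure stability. The count of calls was 267 without NCD replicate 1, 281 without NCD replicate 3, 239 without HFD replicate 1 and 328 without HFD replicate 3 at 4 °C, whereas it was 726 without NCD replicate 2 and 992 without HFD replicate 2. Where a gene is said below to hold throughout, it was called in all 12 fits.

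The libraries in the cold held 17875415 to 46740702 counts. Replicates 1 and 2 of each group formed one batch by the labels and the deeper replicate 3 the other, so both diets were represented in both batches. With batch as a term 917 genes were called, and with replicates 1 and 2 alone 53. One library stood apart: HFD replicate 1 at 4 °C held 18 genes at over 4 times the level of each of the other 11 libraries, among genes with at least 5 CPM in it, against 0 to 4 genes in each of the other libraries. Scd1 and Fasn together took 8.55 to 11.5% of all counts on NCD and 2.23 to 2.91% on HFD, and the TMM factors were 0.896 to 0.952 on NCD and 1.08 to 1.15 on HFD. Skeletal muscle genes varied between libraries without regard to diet: the summed level of 20 muscle markers was 3634, 22870 and 2452 CPM in NCD replicates 1 to 3 and 1484, 1896 and 12050 CPM in HFD replicates 1 to 3, none of the 20 was called, their median log2 fold change went from -2.58 without HFD replicate 3 to 0.73 without NCD replicate 2 at 4 °C, and their part in other genes' values was not tested. Brown adipocyte identity was plain in all 6 libraries, with Ucp1 between 11620 and 18810 CPM and Cidea between 1439 and 2178 CPM.

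**Figure D1:**
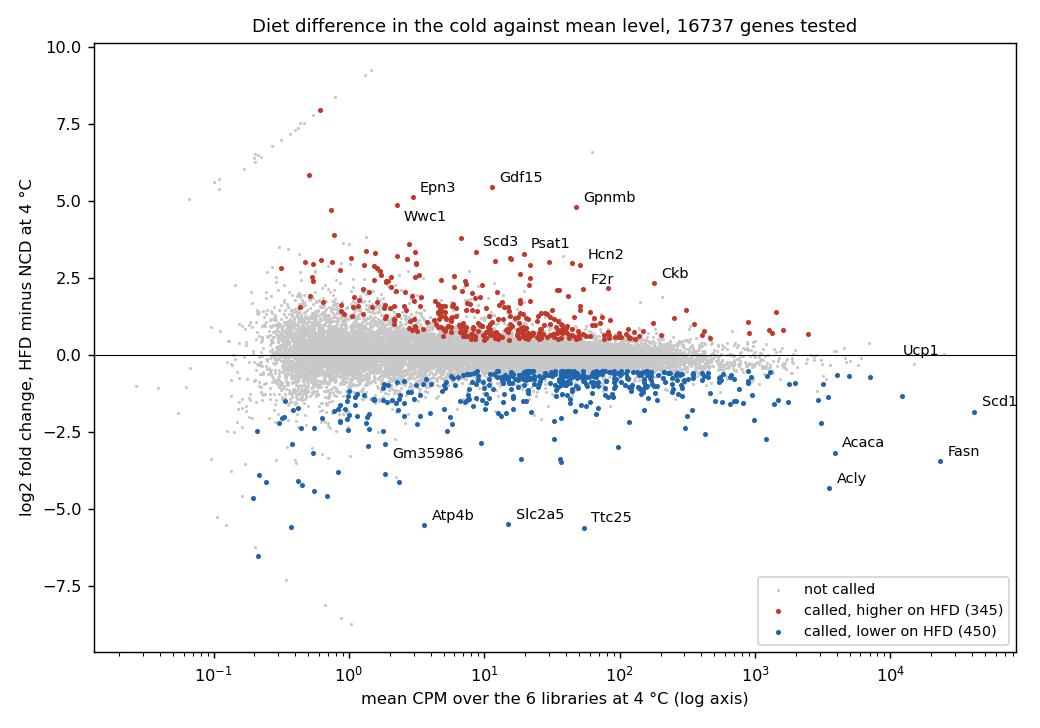
Each point is 1 of 16737 genes, with its mean level in CPM over the 6 libraries at 4 °C on the x axis (log scale) and the log2 fold change of HFD against NCD at 4 °C on the y axis. The 345 called higher genes are red and the 450 called lower genes blue. Acly, Fasn, Acaca and Scd1 lie among the most abundant genes of the tissue and far below 0, while Ucp1 lies near 0.

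Among the 33 lists examined, fatty acid synthesis had the lowest median. Of its 16 tested members, 12 fell and 1 rose, and their median log2 fold change was -1.80, against 0.02 for all genes. Acly, which splits cytosolic citrate into acetyl-CoA, was at 8264, 4534 and 7352 CPM on NCD and at 233.7, 474.2 and 298.1 CPM on HFD. It was thus 20.0-fold lower, with a log2 fold change of -4.32 ± 0.37 (SE, n = 3 per group, adjusted p = 0.000333). Fasn, the fatty acid synthase, was at 44070, 38320 and 45030 CPM on NCD and at 3002, 6152 and 2595 CPM on HFD, 10.8-fold lower (log2 fold change -3.44 ± 0.32, adjusted p = 0.000456). Acaca, the acetyl-CoA carboxylase that makes malonyl-CoA for Fasn, was at 8530, 5626 and 6883 CPM on NCD and at 641.5, 1047 and 647.5 CPM on HFD (log2 fold change -3.17 ± 0.27). For all 3 enzymes the highest HFD library lay far below the lowest NCD library, and HFD replicate 2 was the highest of the HFD libraries.

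The steps on either side of these enzymes fell too. Slc25a1, the carrier that exports citrate from mitochondria, fell by 1.97 on the log2 scale, and Me1, the malic enzyme that supplies NADPH, fell by 2.10. Thrsp, a lipogenic protein that responds to thyroid hormone, was at 2088, 1290 and 2886 CPM on NCD and at 162.5, 437 and 354.2 CPM on HFD (log2 fold change -2.71). Aacs, which activates acetoacetate for lipid synthesis, fell by 2.57, and Scd1, the desaturase that makes oleate, by 1.83 on the log2 scale. Scd1 remained abundant on HFD, at 17240, 20760 and 16790 CPM against 84060, 51590 and 59530 CPM on NCD. All of these genes held throughout. Elovl6, Acss2 and Acacb, named here after their values were seen, also fell, by 1.52, 1.77 and 0.93 on the log2 scale. The list had 11 or 12 lower members called in each of the 12 fits.

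The regulators of the route did not move alike. Mlxipl, which encodes ChREBP, was at 240.4, 205.7 and 265.4 CPM on NCD and at 121.5, 136.1 and 97.9 CPM on HFD, without overlap, and fell by 1.00 ± 0.16 on the log2 scale (adjusted p = 0.00593), holding throughout. Srebf1, which encodes SREBP-1, was at 312, 281 and 527.7 CPM on NCD and at 201.5, 318.2 and 508.8 CPM on HFD, with overlapping groups and a log2 fold change of -0.12 ± 0.37 (adjusted p = 0.89). Its sign turned without HFD replicate 1 or NCD replicate 3 at 4 °C. Counts of Srebf1 do not separate the transcripts for SREBP-1a and SREBP-1c. The member that rose, Scd3, a desaturase close in sequence to Scd1, was at 2.35, 1.77 and 0.615 CPM on NCD and at 39.0, 2.73 and 5.27 CPM on HFD. Its rise (log2 fold change 3.36, adjusted p = 0.0482) rested on HFD replicate 1 at 4 °C and was called in 1 of the 12 fits, and reads of Scd3 may be shared with its abundant paralogs.

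**Figure D2:**
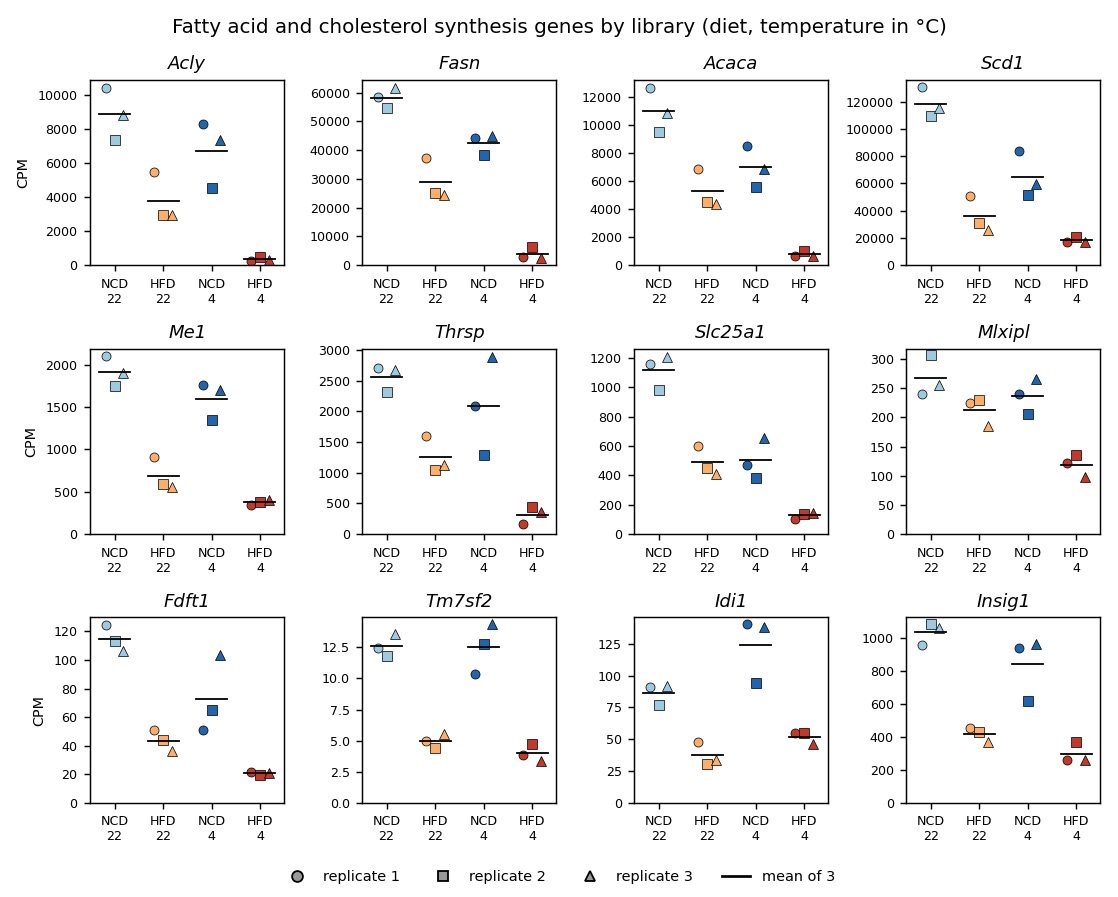
Levels in CPM (y axis, each from 0) of 12 genes of fatty acid and cholesterol synthesis in each library of the 4 groups, by diet and temperature. Symbols mark the replicate number and the bar is the mean of 3. In each panel the 3 HFD libraries at 4 °C lie below the 3 NCD libraries at 4 °C.

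Genes of cholesterol synthesis fell too, with smaller fold changes. Of 21 tested members 14 fell and 0 rose, with a median log2 fold change of -0.95. The largest falls were those of Fdft1, the squalene synthase, and of Tm7sf2, a sterol reductase late in the pathway. Fdft1 was at 50.8, 64.8 and 103.2 CPM on NCD and at 21.8, 19.3 and 21.1 CPM on HFD (log2 fold change -1.81 ± 0.22). Tm7sf2 was at 10.4, 12.8 and 14.3 CPM on NCD and at 3.87, 4.71 and 3.36 CPM on HFD (log2 fold change -1.66 ± 0.17, adjusted p = 0.000872). Idi1 and Fdps, which make and join the isoprene units, fell by 1.26 and 1.04 on the log2 scale, and these 4 genes held throughout. Acat2, Mvd and Lss, further enzymes of the pathway, fell by 0.90 to 1.27, in 9 or 10 of the 12 fits. Insig1, the sterol-sensing anchor of SREBP in the endoplasmic reticulum and itself a classical SREBP target, fell by 1.51, again throughout. It belongs to a list of 15 tested genes of sterol regulation, uptake and efflux, of which 2 rose and 2 fell. The efflux pump gene Abcg1 rose by 0.97 and Soat1, which esterifies cholesterol, by 0.95, in 3 and 8 of the 12 fits, while the lysosomal sterol carrier gene Npc2 fell by 0.93. Hmgcs1, the HMG-CoA synthase, was not called, with a log2 fold change of 0.14 (adjusted p = 0.763). The number of lower members called was 8 without NCD replicate 1, 5 without NCD replicate 3, 5 without HFD replicate 1 and 6 without HFD replicate 3 at 4 °C.

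Promoter sequences of the fallen lipid genes are given because their members moved together. They are RefSeq windows on GRCm38.p6 that run from 250 bases before to 50 bases after an annotated start. Windows were found for 11 of the 12 fallen fatty acid synthesis genes and for 10 of the 14 fallen cholesterol synthesis genes. The motif CCAAT, the core of the site bound by the factor NF-Y, was searched for on both strands, where it reads CCAAT or ATTGG. A gene was counted where any of its windows held the motif. It was present for 8 of the 11 fatty acid genes (72.7%) and for 9 of the 10 cholesterol genes (90%), while 42.5% of the 10966 tested genes with a window and 52.4% of the 319 lower called genes with one held it. It was also present for 8 of 13 fallen genes of the glucose list and for the 4 risen genes of the stress response list described below, so it was not particular to the lipid genes. The palindromic E-box CACGTG was present for 2 of the 11 and for 1 of the 10, against 11.4% of all tested genes. The letters TCACNCCAC, chosen as a form of the sterol regulatory element, were present for 1 of the 11, Mlxipl, and for 0 of the 10, against 1.40%. The letters TGATGNAA, a form of the site bound by ATF4, were present for 0 of the 4 risen stress response genes and for 2.80% of all tested genes. A match is a description of these letters and not evidence of binding. The 4 windows printed are those of the 2 fallen members of each list with the smallest adjusted p that have a single window with the motif. Capitals mark CCAAT or ATTGG.
Acly, chr11:100527951-100528250, minus strand: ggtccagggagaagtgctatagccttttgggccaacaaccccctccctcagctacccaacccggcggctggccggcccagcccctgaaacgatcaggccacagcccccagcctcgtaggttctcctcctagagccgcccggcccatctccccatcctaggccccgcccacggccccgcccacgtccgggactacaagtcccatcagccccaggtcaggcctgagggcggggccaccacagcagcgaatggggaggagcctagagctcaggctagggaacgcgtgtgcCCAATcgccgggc
Fasn, chr11:120824498-120824797, minus strand: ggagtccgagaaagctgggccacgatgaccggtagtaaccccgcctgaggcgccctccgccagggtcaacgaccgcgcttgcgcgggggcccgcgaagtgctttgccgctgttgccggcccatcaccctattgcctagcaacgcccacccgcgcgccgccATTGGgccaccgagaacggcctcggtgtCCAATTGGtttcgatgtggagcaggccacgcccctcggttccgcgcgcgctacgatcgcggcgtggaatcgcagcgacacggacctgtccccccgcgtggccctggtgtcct
Tm7sf2, chr19:6067801-6068100, minus strand: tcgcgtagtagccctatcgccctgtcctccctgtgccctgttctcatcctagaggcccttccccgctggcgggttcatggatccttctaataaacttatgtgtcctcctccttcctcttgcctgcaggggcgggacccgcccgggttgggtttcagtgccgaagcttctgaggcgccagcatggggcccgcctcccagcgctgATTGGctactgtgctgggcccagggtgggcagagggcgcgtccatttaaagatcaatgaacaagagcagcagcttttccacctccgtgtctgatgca
Idi1, chr13:8885356-8885655, plus strand: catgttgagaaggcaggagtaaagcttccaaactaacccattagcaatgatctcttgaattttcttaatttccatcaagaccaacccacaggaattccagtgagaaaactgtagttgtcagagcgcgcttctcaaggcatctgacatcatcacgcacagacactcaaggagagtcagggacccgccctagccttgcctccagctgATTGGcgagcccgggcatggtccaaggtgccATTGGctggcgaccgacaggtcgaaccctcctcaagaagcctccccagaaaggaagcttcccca
The Fasn window held 3 matches, of which a CCAAT and an ATTGG overlap by sharing their AT, the Idi1 window held 2 and the others 1 each. The match in the Acly window lies after the annotated start.

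Genes of the glucose branch that feeds fatty acid synthesis were lower as well, among them the gene of an inhibitor, Pdk1. Of 38 tested genes of glucose uptake, glycolysis and pyruvate oxidation 14 fell and 1 rose, with a median log2 fold change of -0.58. Pdk1, a kinase that restrains pyruvate dehydrogenase, was at 247.8, 186.1 and 263.1 CPM on NCD and at 54.8, 83.8 and 66.1 CPM on HFD (log2 fold change -1.77 ± 0.18, adjusted p = 0.000836). Hk2, the insulin-regulated hexokinase, was at 912.7, 840.2 and 1353 CPM on NCD and at 397.9, 332 and 384.3 CPM on HFD (log2 fold change -1.48). Eno1, an enolase, fell by 1.35, Mpc1, a subunit of the mitochondrial pyruvate carrier, by 1.29, Pdhb, a subunit of pyruvate dehydrogenase, by 1.11 and Slc2a4, the insulin-responsive glucose transporter GLUT4, by 0.88 on the log2 scale. The groups did not overlap for any of these 6 genes, and all 6 held throughout. Hk1, the constitutive hexokinase, rose from 75.3, 85.2 and 93.7 CPM to 153.5, 117.7 and 142.8 CPM (log2 fold change 0.70). Its call was lost without NCD replicate 1 or HFD replicate 1 at 4 °C. The number of lower genes called in the list was 7 without HFD replicate 1, 6 without HFD replicate 3 and 9 without NCD replicate 3 at 4 °C.

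The pentose phosphate branch, a source of NADPH for fatty acid synthesis, showed falls of similar size. In the list of pentose phosphate and one-carbon genes, 4 of 14 tested members fell and 2 rose. Tkt, the transketolase, was at 5790, 3582 and 5681 CPM on NCD and at 725.8, 1357 and 1190 CPM on HFD, 4.60-fold lower (log2 fold change -2.20 ± 0.27). Taldo1 and Pgd, further enzymes of the branch, fell by 1.49 and 1.23 on the log2 scale, all 3 throughout. G6pdx, the entry enzyme of the branch, fell by 0.74 but was called in 4 of the 12 fits. The 2 members that rose, Mthfd2 and Shmt2, belong to mitochondrial one-carbon metabolism and are taken up below with serine synthesis.

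Glycogen genes and genes of branched-chain amino acid catabolism fell in part. Of 16 tested glycogen genes 4 fell and 1 rose, with a median of -0.59. Stbd1, which tethers glycogen to membranes, rose from 6.36, 7.30 and 8.88 CPM to 27.2, 15.5 and 24.8 CPM (log2 fold change 1.58), throughout. Pygl, a glycogen phosphorylase, fell by 1.54 on the log2 scale (called in 8 of the 12 fits). No lower glycogen gene was called without NCD replicate 1, NCD replicate 3 or HFD replicate 1 at 4 °C. Of 24 tested genes of branched-chain amino acid catabolism 5 fell, among them Slc25a44, the mitochondrial carrier of these amino acids (log2 fold change -0.81), and Bckdha, a subunit of the dehydrogenase that commits them to breakdown (-0.69). None of the 5 was called without HFD replicate 1, HFD replicate 3 or NCD replicate 3 at 4 °C, whereas 10 members of the list were called lower without HFD replicate 2. The 2 members that rose were Bcat1, the cytosolic aminotransferase (log2 fold change 2.54, throughout), and Slc7a5, a transporter that imports large neutral amino acids.

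Genes that handle preformed fatty acids moved in both directions. Of 19 tested genes of lipoprotein lipolysis and fatty acid uptake 5 fell and 1 rose. Acsl5, an acyl-CoA synthetase, fell from 1990, 1841 and 2404 CPM to 631.7, 652.9 and 785.6 CPM (log2 fold change -1.59 ± 0.18, adjusted p = 0.00126), and Slc27a1, the fatty acid transport protein FATP1, by 1.01 on the log2 scale, both throughout. Fabp4 and Fabp5, the fatty acid binding proteins of adipocytes, fell by 0.71 and 1.07, in 7 and 9 of the 12 fits, and Apoc1 by 0.74. Fabp3, the heart-type fatty acid binding protein, rose instead, from 906.2, 1247 and 1372 CPM to 1779, 2092 and 2294 CPM (log2 fold change 0.81, called in 10 of the 12 fits). In triglyceride synthesis 3 of 19 tested members fell, of which Gpd1, the source of glycerol-3-phosphate, was at 16600, 16020 and 19840 CPM on NCD and at 5192, 8346 and 7204 CPM on HFD (log2 fold change -1.34, throughout). The monoacylglycerol acyltransferase genes Mogat1 and Mogat2 also fell, in 8 and 0 of the 12 fits. Of 13 tested genes of fatty acid elongation and desaturation 2 fell, Tecr by 1.11 and Elovl5 by 0.93.

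Lipolysis and oxidation showed few calls. Of 17 tested lipolysis and lipid droplet genes 2 fell, Pnpla2, the triglyceride lipase ATGL, by 0.66 and Mgll, the monoglyceride lipase, by 0.55 on the log2 scale, in 4 and 3 of the 12 fits. Of 36 tested genes of fatty acid oxidation and ketone metabolism 2 rose and 2 fell. Cpt1a, which passes fatty acids to the mitochondrion, was at 39.0, 47.9 and 44.5 CPM on NCD and at 96.3, 92.6 and 124.5 CPM on HFD, 2.39-fold higher (log2 fold change 1.25 ± 0.17, adjusted p = 0.00245). Acot2, a mitochondrial acyl-CoA thioesterase, rose by 1.47 and Acot11, a thioesterase known for its induction by cold in brown fat, fell by 1.47 on the log2 scale. These 3 genes held throughout. Every one of the 78 tested nuclear-encoded subunits of the respiratory chain had a negative log2 fold change, with a median of -0.36 and a lowest value of -1.10, but only 3 were called, Ndufb8, Uqcr10 and Ndufb11. The summed level of the list was 45530 to 52330 CPM on NCD and 35620 to 44570 CPM on HFD, and HFD replicate 2 was the highest of the HFD libraries. Without it 23 subunits were called lower, and none was called without NCD replicate 1, NCD replicate 3, HFD replicate 1 or HFD replicate 3 at 4 °C. In the list of the tricarboxylic acid cycle, with 14 tested genes, 1 fell, Mdh1 (log2 fold change -0.84, throughout). Mdh1 encodes the cytosolic malate dehydrogenase, which lies outside the mitochondrial cycle, and no other member was called.

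**Figure D3:**
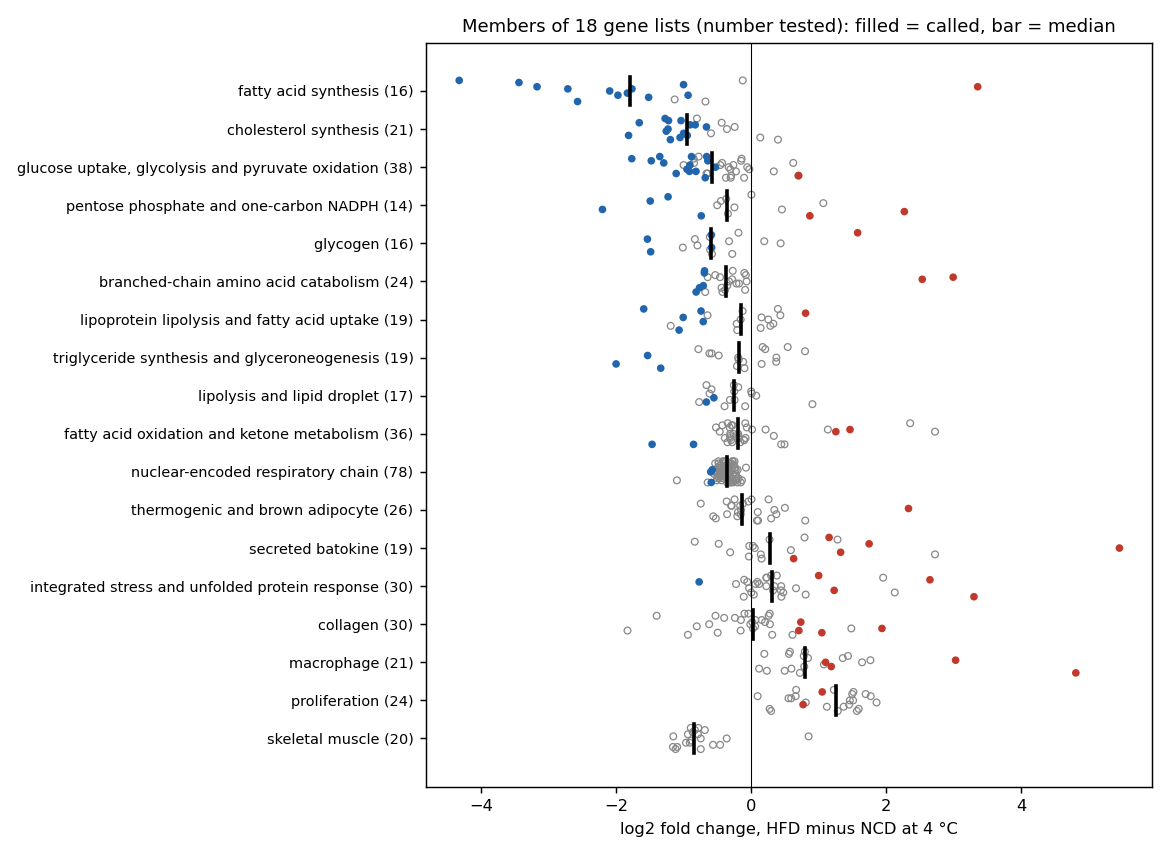
Log2 fold change of HFD against NCD at 4 °C (x axis) of every tested member of 18 gene lists, with the number tested in brackets. Filled points were called (red higher, blue lower), open points were not, and the bar is the list's median. The medians of fatty acid synthesis (-1.80) and cholesterol synthesis (-0.95) lie farthest to the left, and those of the macrophage (0.80) and proliferation (1.25) lists farthest to the right. The median of skeletal muscle (-0.85) turned to 0.73 without NCD replicate 2 at 4 °C.

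The thermogenic programme showed no comparable difference. Of 26 tested thermogenic and brown adipocyte genes 1 rose and 0 fell, with a median log2 fold change of -0.13, which lay between -0.17 and 0.03 when a library was left out. Ucp1 was at 18810, 15320 and 14940 CPM on NCD and at 11620, 15190 and 13150 CPM on HFD, with overlapping groups and a log2 fold change of -0.30 ± 0.17 (adjusted p = 0.328). Dio2, which activates thyroid hormone in brown fat, had a log2 fold change of 0.34 (adjusted p = 0.5). Cidea, a lipid droplet protein of brown adipocytes, had one of -0.25 (adjusted p = 0.353), and Adcy3, an adenylyl cyclase induced by cold, one of 0.09 (adjusted p = 0.829). Elovl3, a cold-induced fatty acid elongase, was at 1169, 1139 and 1315 CPM on NCD and at 857.2, 562.4 and 740.6 CPM on HFD. These groups did not overlap, but the log2 fold change of -0.75 missed the threshold (adjusted p = 0.0923). The member that rose was Ckb, the creatine kinase of the futile creatine cycle. It was at 34.9, 80.9 and 61.1 CPM on NCD and at 307.9, 236.9 and 344.7 CPM on HFD, 5.03-fold higher, with every HFD library above every NCD library (log2 fold change 2.33 ± 0.27, adjusted p = 0.00143, throughout).

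Adipokine genes were divided. Of 17 tested white adipocyte and adipokine genes 2 rose and 2 fell. Rbp4, the retinol carrier, fell by 1.32 and Retn, which encodes resistin, by 0.82 on the log2 scale, each in 8 of the 12 fits. Mest, an imprinted gene linked to fat cell size, rose from 1.89, 3.12 and 1.89 CPM to 14.3, 7.04 and 14.9 CPM (log2 fold change 2.40, in 10 fits), and Npr3, the clearance receptor of natriuretic peptides, by 1.09 (in 8 fits). Adiponectin (Adipoq, log2 fold change -0.52, adjusted p = 0.0931) was not called. Lep, which encodes leptin, was at 14.6, 10.1 and 108.7 CPM on NCD and at 16.6, 16.3 and 42.0 CPM on HFD, highest in replicate 3 on both diets, and was not called either (adjusted p = 0.598).

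Among called coding genes with a mean of at least 1 CPM and no overlap, the 3 steepest falls lay outside the gene lists. Slc2a5, the fructose transporter GLUT5, was at 36.4, 13.9 and 37.8 CPM on NCD and at 0.585, 0.748 and 0.629 CPM on HFD, 44.9-fold lower (log2 fold change -5.49 ± 0.45, adjusted p = 0.000295). Atp4b, the beta subunit of the gastric proton pump, was at 7.97, 4.53 and 8.64 CPM on NCD and at 0.135, 0.176 and 0.140 CPM on HFD, 46.1-fold lower. Ttc25, a component of motile cilia, was at 101.2, 42.7 and 173.8 CPM on NCD and at 1.67, 2.86 and 2.051 CPM on HFD, 48.4-fold lower (log2 fold change -5.60 ± 0.53). Ttc25 (chr11:100545607-100572568, plus strand, GRCm38) and Acly (chr11:100476353-100528000, minus strand) lie head to head, with more than 10000 bases between their starts. Whether their falls are linked was not tested. Hephl1, a multicopper oxidase, and Tjp3, a tight junction protein, fell by 3.47 and 4.12, and Slc15a5, of a peptide transporter family, by 3.86 on the log2 scale. All 6 genes held throughout and none of them had overlapping groups. The HFD levels of Atp4b, Tjp3 and Slc15a5 rest on 3 to 14 counts a library, so that the sizes of their folds are uncertain.

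Among the rises, those with the smallest adjusted p were shared by all 3 HFD libraries. F2r, the thrombin receptor PAR1, was at 17.0, 22.2 and 19.9 CPM on NCD and at 85.1, 82.0 and 95.2 CPM on HFD, with the smallest adjusted p of all genes (9.19e-05, log2 fold change 2.147 ± 0.14). Hcn2, a cyclic nucleotide-gated pacemaker channel, was at 8.26, 12.5 and 14.4 CPM on NCD and at 80.1, 101.3 and 90.3 CPM on HFD, 7.67-fold higher (adjusted p = 0.000295). Wwc1, the Hippo pathway protein KIBRA, was at 0.172, 0.118 and 0.142 CPM on NCD and at 5.31, 3.08 and 4.68 CPM on HFD, and Epn3, an endocytic adaptor, at 0.0573, 0.177 and 0.213 CPM against 6.98, 2.33 and 7.95 CPM. Wdr72 and Cacna2d3, a calcium channel subunit, rose by 3.62 and 3.38 on the log2 scale. These 6 genes held throughout. Kcnh6, a potassium channel gene, rose by 3.80 and was lost without NCD replicate 1 or HFD replicate 1 at 4 °C. The NCD levels of Wwc1, Epn3, Cacna2d3 and Wdr72 rest on 0 to 20 counts a library, so that the sizes of their folds are uncertain.

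Of 30 tested genes of the integrated stress and unfolded protein response 4 rose, Psat1, Phgdh, Sesn2 and Sdf2l1, and 1 fell, with a median log2 fold change of 0.31, or 0.21 without HFD replicate 1 at 4 °C. The summed level of the list was 2385 to 2497 CPM on NCD and 2434 to 3228 CPM on HFD, with overlapping groups. Psat1, which aminates the serine precursor, was at 4.13, 3.001 and 3.65 CPM on NCD and at 63.7, 7.57 and 35.2 CPM on HFD, 9.86-fold higher (log2 fold change 3.30 ± 0.57, adjusted p = 0.00947). Phgdh, the first enzyme of serine synthesis, was at 4.70, 5.30 and 5.07 CPM on NCD and at 54.5, 14.4 and 25.7 CPM on HFD, 6.27-fold higher (log2 fold change 2.65 ± 0.41, adjusted p = 0.00555). Every HFD library lay above every NCD library for both, with replicate 1 the highest and replicate 2 the lowest of the HFD libraries. Phgdh held throughout, and Psat1 was lost without NCD replicate 3 at 4 °C. Psph, the last enzyme of serine synthesis, fell by 0.77 on the log2 scale (called in 8 of the 12 fits). Mthfd2 and Shmt2, which carry the one-carbon units of serine in mitochondria, rose by 2.27 and 0.87, in 7 and 10 of the 12 fits. Slc7a5 was at 0.516, 1.06 and 0.521 CPM on NCD and at 11.6, 1.89 and 2.98 CPM on HFD (log2 fold change 2.99). Its call was lost without NCD replicate 1, NCD replicate 3 or HFD replicate 1 at 4 °C. The list had 1 to 6 higher members called in the 12 fits, 1 without NCD replicate 3 and 6 without HFD replicate 2 at 4 °C. Sesn2, a stress-induced inhibitor of mTORC1 signalling, and Sdf2l1, a chaperone component of the endoplasmic reticulum, rose by 1.00 and 1.23, in 2 and 4 fits.

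Of 19 tested genes of factors that brown fat is known to secrete 5 rose and 0 fell. Gdf15, a hormone induced by cellular stress that acts on appetite through the hindbrain, was at 0.688, 0.530 and 0.355 CPM on NCD and at 55.4, 3.39 and 7.81 CPM on HFD. It was 43.9-fold higher (log2 fold change 5.46 ± 1.21, adjusted p = 0.0286), with a log2 fold change of 3.50 in the lowest of the 12 fits. The call was lost without HFD replicate 1 or without any 1 of the NCD libraries at 4 °C. Bmp8b, a secreted factor that raises the sympathetic response of brown fat, was at 9.92, 10.7 and 9.30 CPM on NCD and at 41.7, 17.9 and 40.6 CPM on HFD (log2 fold change 1.75, in 7 of the 12 fits). Nucb2, the precursor of nesfatin, and Cxcl14, a chemokine released by active brown fat, rose by 1.16 and 1.33, in 12 and 10 fits, and Metrnl, which encodes meteorin-like, by 0.63 in 3 fits. The number of risen members ranged from 1 without NCD replicate 1 or NCD replicate 3 to 6 without HFD replicate 2 at 4 °C.

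**Figure D4:**
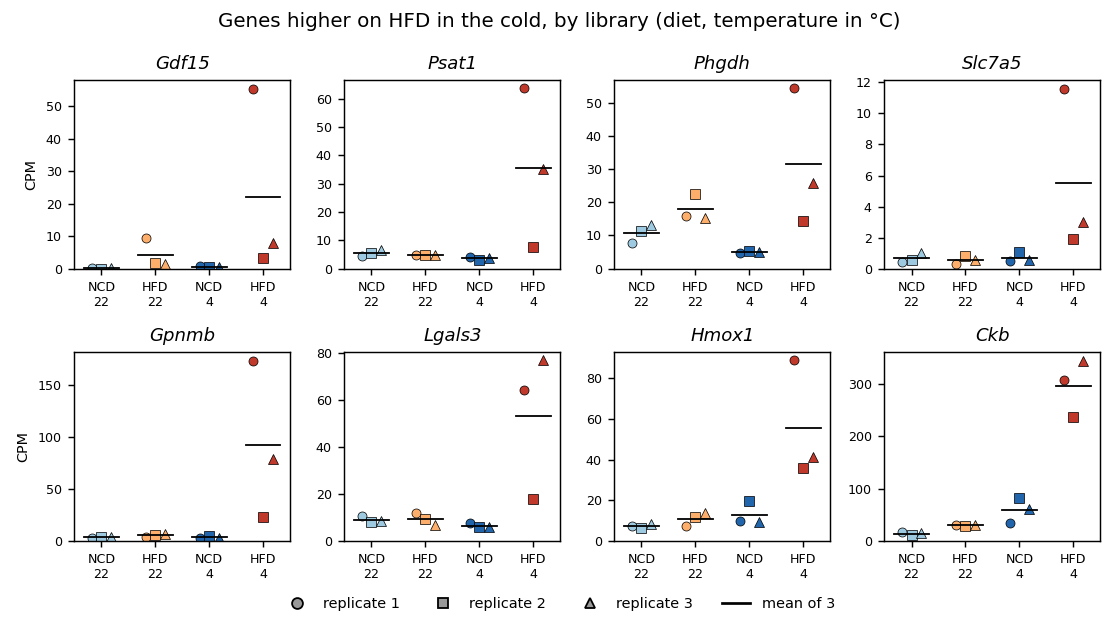
Levels in CPM (y axis, each from 0) of 8 genes higher on HFD at 4 °C, in each library of the 4 groups. Symbols mark the replicate number and the bar is the mean of 3. HFD replicate 1 at 4 °C is the highest library for Gdf15, Psat1, Phgdh, Slc7a5, Gpnmb and Hmox1, whereas the 3 HFD libraries at 4 °C lie closer together for Ckb.

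Gpnmb and Lgals3, genes often used as markers of lipid-laden macrophages, rose steeply. Gpnmb, a lysosomal membrane glycoprotein, was at 2.64, 4.88 and 2.44 CPM on NCD and at 173.0, 23.2 and 79.1 CPM on HFD, 28.1-fold higher (log2 fold change 4.81 ± 0.64, adjusted p = 0.00245). Lgals3, which encodes galectin-3, was at 7.45, 6.00 and 6.08 CPM on NCD and at 64.2, 17.96 and 77.0 CPM on HFD (log2 fold change 3.03 ± 0.44, adjusted p = 0.00403). Both held throughout. Of the 21 tested macrophage markers, 4 rose and the other 17 were not called, with a median log2 fold change of 0.80, which was 0.40 without HFD replicate 3 at 4 °C and 0.35 with replicates 1 and 2 only. Mrc1 and Itgam, the 2 further members called, rose by 1.10 and 1.19 in 1 fit of 12 each. Without HFD replicate 2 at 4 °C 7 members of the list were called, and 2 without any of the other libraries at 4 °C. The defining macrophage gene Adgre1, which encodes F4/80, was at 9.0, 8.30 and 6.53 CPM on NCD and at 10.2, 9.11 and 19.7 CPM on HFD (adjusted p = 0.219), and Cd68 had a log2 fold change of 1.64 (adjusted p = 0.0569). The summed level of the list was 157.0 to 208.5 CPM on NCD and 500.3, 235.4 and 579.1 CPM in HFD replicates 1 to 3. The part that macrophage number plays in the rise of Gpnmb and Lgals3 was not tested. Hmox1, the heme oxygenase, rose from 9.80, 19.4 and 9.47 CPM to 88.8, 35.8 and 41.2 CPM (log2 fold change 2.11), in 10 of the 12 fits. Of 25 tested antioxidant genes 4 rose and 3 fell, with the glutathione peroxidase gene Gpx4 lower by 0.71 and Gss, the glutathione synthetase, higher throughout (log2 fold change 0.92).

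Proliferation genes were highest in 1 library, HFD replicate 3 at 4 °C. All 24 tested members had a positive log2 fold change, with a median of 1.25, but 2 were called, Mcm2 and Mcm6, both of the replicative helicase. The summed level was 91.3 to 93.7 CPM in the NCD libraries and 102.2, 127.4 and 271.4 CPM in HFD replicates 1 to 3. Without HFD replicate 3 at 4 °C the median was 0.48 and no member was called. None was called either without any single NCD library at 4 °C or 22 °C, or without HFD replicate 1 or 2 at 22 °C. Without HFD replicate 1 or 2 at 4 °C 2 members were called, and without HFD replicate 3 at 22 °C 1 was. Of 30 tested collagen genes 4 rose, Col12a1 by 1.94 on the log2 scale throughout, and the basement membrane chains Col4a1, Col4a2 and Col4a5 by 0.74, 0.71 and 1.05, in 8 or 9 of the 12 fits. One of 16 tested fibroblast and progenitor genes rose, Cd34 by 0.56 in 2 fits, and 1 of 4 tested hepatocyte genes, Serpina1a, while the defining hepatocyte gene Alb was at most at 0.225 CPM at 4 °C. Of 10 tested genes of neutrophils, mast cells and lymphocytes 1 rose, the mast cell protease gene Cpa3, from 0.516, 0.765 and 0.189 CPM to 1.94, 1.32 and 2.82 CPM, in 7 fits. No member of the heat shock, circadian clock, insulin signalling, interferon, endothelial, erythroid or Schwann cell and sympathetic nerve lists was called at 4 °C. With DESeq2 2 members of each of the endothelial, circadian and insulin lists were called.

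Of 3433 tested long non-coding RNA (lncRNA) genes 2.36% were called, and of 13196 protein-coding genes 5.41%. Of the 81 called lncRNA genes 22 rose and 59 fell, and 16 of them had the type lncRNA in the deposited table and the other 65 the type noncoding. Cpq, counted among them, is a coding gene in GENCODE M21. The steepest falls with a mean of at least 1 CPM and no overlap were those of Gm35986, QNCMUSG00016883, 1110018N20Rik and Gm11773. Gm35986 (chr3:129527467-129532388, minus strand, GRCm38) overlaps the fatty acid elongase gene Elovl6 on the opposite strand. It was at 3.15, 2.47 and 4.12 CPM on NCD and at 0.315, 0.528 and 0.466 CPM on HFD, 7.37-fold lower (log2 fold change -2.88 ± 0.41, adjusted p = 0.004). Elovl6, named here after its value was seen, fell by 1.52 on the log2 scale. Gm11773 (chr11:120831029-120834244, plus strand) lies 6482 bases from Fasn and overlaps Ccdc57 on the other strand. It was at 2.29, 2.12 and 2.13 CPM on NCD and at 0.360, 0.881 and 0.233 CPM on HFD (log2 fold change -2.19). 1110018N20Rik fell by 2.40 on the log2 scale. Whether the counting used strand is not given in the sources used here, so reads of Gm35986 or Gm11773 and of the coding gene across from each cannot be told apart.

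Gm35986 and 1110018N20Rik held throughout, QNCMUSG00016883 in 4 of the 12 fits, and Gm11773 was called in 8 of the 12 fits, lost without NCD replicate 1, NCD replicate 3, HFD replicate 1 or HFD replicate 3 at 4 °C. Among the 46 called lncRNA genes with coordinates, 5 (10.9%) had a coding gene within 10000 bases that was called in the same direction, and among all 1096 tested lncRNA genes with coordinates 43 (3.92%) had one. The steepest rises among called lncRNA genes with a mean of at least 1 CPM and no overlap were those of QNCMUSG00049232, QNCMUSG00009803, Tmem74bos and Gm29686, with log2 fold changes of 2.93, 2.84, 2.44 and 1.78. They were called in 9, 5, 2 and 7 of the 12 fits, and none of them exceeded 5.58 CPM in a library at 4 °C. Of lncRNA genes known from brown fat, Lncbate1, named after its value was seen, fell by 0.65 on the log2 scale (adjusted p = 0.0121), and it overlaps a coding gene on the other strand. The other 3 looked at were not called. Gm15551, an adipose lncRNA, was at 1.72, 0.471 and 1.40 CPM on NCD and at 0.405, 0.528 and 0.629 CPM on HFD, with overlapping groups (log2 fold change -1.19 ± 0.54, adjusted p = 0.221). Ctcflos had a log2 fold change of 0.53 (adjusted p = 0.146), and Lncbate10 one of 0.66 (adjusted p = 0.0821), while at 22 °C both were called, with log2 fold changes of 1.28 and 1.57. Whether the diet difference of either depended on temperature did not pass the interaction test in edgeR.

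The diet difference at 22 °C was set beside these values. Its group means came from the other 6 libraries. Both differences used the same estimate of each gene's spread from all 12 libraries, so their calls were not independent. At 22 °C 349 genes (2.09%) were called, 166 higher and 183 lower. Of these, 169 were also called at 4 °C, each in the same direction, 65 higher and 104 lower, which is 21.3% of the calls at 4 °C and 48.4% of those at 22 °C. Of the 795 genes called at 4 °C, 739 (93.0%) had the same sign at 22 °C, against 68.9% of all tested genes. Their values at 22 °C were closer to 0 in 688 of 795 cases, a count in which genes chosen for their value at 4 °C are favoured at 4 °C. The median log2 fold change of the fallen genes was -0.90 at 4 °C and -0.50 at 22 °C, and that of the risen genes 1.05 and 0.52.

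The medians of cholesterol synthesis lay close together at both temperatures, while that of fatty acid synthesis was lower in the cold. In cholesterol synthesis 14 members fell at 4 °C and 12 at 22 °C, with medians of -0.95 and -1.09, and in fatty acid synthesis 12 and 6 fell, with medians of -1.80 and -1.19. Acly had a log2 fold change of -4.32 at 4 °C and of -1.23 at 22 °C (adjusted p = 0.0814), where it was at 10380, 7371 and 8845 CPM on NCD and at 5452, 2936 and 2964 CPM on HFD. Fasn had log2 fold changes of -3.44 and -1.01, Slc2a5 of -5.49 and -1.43, and Ttc25 of -5.60 and -1.55. Other genes had values of similar size at both temperatures, with log2 fold changes of 2.147 and 1.73 for F2r, 2.94 and 3.21 for Hcn2, 4.88 and 5.13 for Wwc1 and -1.83 and -1.73 for Scd1. Psat1, Gpnmb and Lgals3 had log2 fold changes of -0.25, 0.67 and 0.04 at 22 °C, none of them called. Ucp1 had one of 0.74 at 22 °C (adjusted p = 0.0484).

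None of these contrasts between temperatures passed the test of the difference itself in edgeR. The interaction of diet and temperature called 0 of 16737 genes in edgeR at an adjusted p under 0.05, with a smallest adjusted p of 0.0566, although 1091 genes had an unadjusted p under 0.05. DESeq2 called 62 genes in the same test. For Acly, Fasn, Psat1 and Gpnmb the interaction had an adjusted p of 0.0979, 0.166, 0.397 and 0.298. That the diet difference of a named gene is larger in the cold is therefore given by its values and not by the edgeR test. Whether a named gene was among the 62 called by DESeq2 is not given here.

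**Figure D5:**
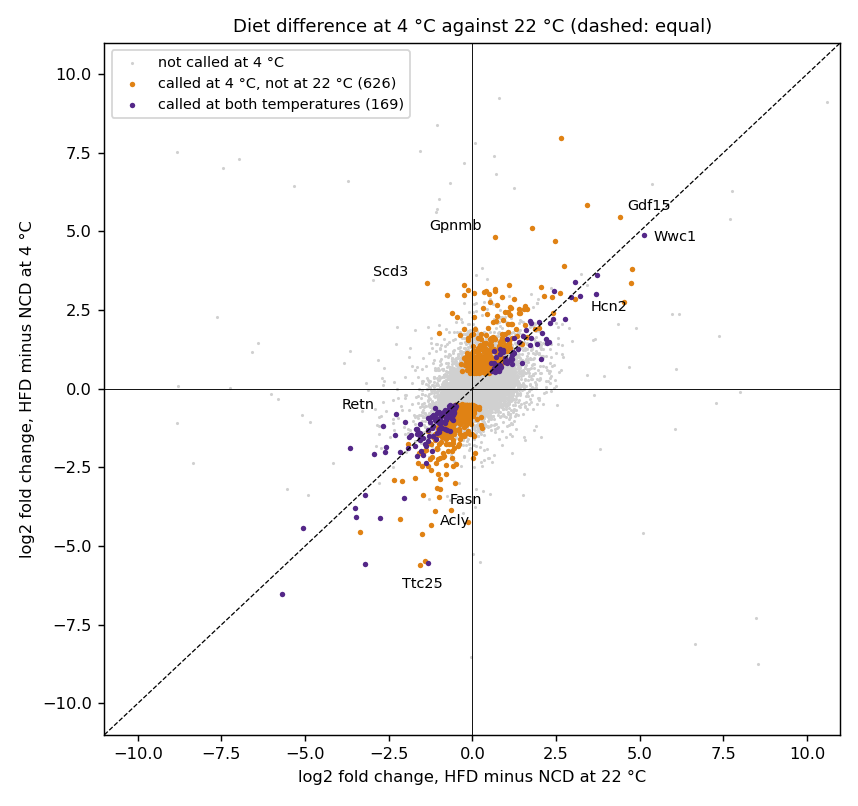
Log2 fold change of HFD against NCD at 22 °C (x axis) and at 4 °C (y axis) for 16737 genes. The group means came from separate libraries and the calls from a shared fit. Orange genes were called at 4 °C and not at 22 °C, the 169 purple genes were called at both, and the dashed line marks equal values. Wwc1 and Hcn2 lie near the line, while Acly, Fasn, Ttc25 and Gpnmb lie on the side of the larger value at 4 °C.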

How the data were processed

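Total RNA of 12 iBAT samples was sequenced after removal of ribosomal RNA. By the account of the authors, reads were trimmed with cutadapt and quantified with salmon against GENCODE M22 and RNAcentral 5 on GRCm38, transcripts were summed to genes, and estimated counts were deposited as whole numbers. Tool versions and the use of strand are not given in the sources used here. Of 61210 genes in the table, 16737 passed edgeR's filterByExpr (minimum count 10). Groups followed the sample labels, with 3 mice per group, and nothing was left out or imputed. All 12 libraries (15136861 to 46740702 counts) entered one edgeR 4.0.16 quasi-likelihood fit of 4 group means with TMM factors in R 4.3.3, from which the diet difference at 4 °C, that at 22 °C and their interaction were taken. P-values were adjusted over all tested genes by Benjamini-Hochberg, and calls needed an adjusted p under 0.05 and, for the diet differences, an absolute log2 fold change over 0.5. Values after ± are standard errors of the log2 fold change. Alternatives used DESeq2 1.42.0, edgeR's glmTreat, other filters, size factors, batch or replicate terms, fewer libraries, and each library left out in turn. The script was tested on simulated data. Genes were matched to GENCODE M21 on GRCm38 by Ensembl ID for coordinates, and promoter windows came from RefSeq.

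The gene lists, the comparison and the tests were chosen with earlier results of these data known. Genes were named by rule. Called genes with a mean of at least 1 CPM and no overlap between groups gave the 8 largest rises and 8 largest falls of coding genes, 4 of each among lncRNA genes, and the 6 smallest adjusted p among coding genes. Up to 8 called members of each list by adjusted p were added, with a few thermogenic, lipogenic and lncRNA genes whether called or not. Any other gene is said to have been named after its value was seen, except defining cell markers. Some genes that this rule names are not reported here.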

Additional observations from a re-analysis of the deposited data

How the results depend on the processing

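The counts of calls depended on which libraries and which test were used. In the 12 fits that left out 1 library, all 795 genes called at 4 °C kept their direction. The lack of overlap between the groups in 794 of them all but fixed this beforehand. Over those 12 fits the changed genes at 4 °C numbered 239 to 992, the higher genes 91 to 431, the lower genes 121 to 561, the lncRNA genes 17 to 95, the genes changed at 22 °C 117 to 369 and the genes with an interaction 0 to 22. DESeq2 called 1321 genes at 4 °C (620 higher, 701 lower, 123 lncRNA), 828 at 22 °C and 62 in the interaction. With replicates 1 and 2 only, 53 genes were called at 4 °C (25 higher, 28 lower, 6 lncRNA) and 42 at 22 °C. With the 6 libraries at 4 °C only, 149 were called (57 higher, 92 lower, 10 lncRNA), and with glmTreat 155 (64 higher, 91 lower, 14 lncRNA) and 70 at 22 °C. With the type lncRNA alone 16 lncRNA genes were called. Without a filter on counts the interaction called 27 genes. The deviations of same-numbered NCD and HFD libraries at 4 °C correlated at 0.20, -0.21 and 0.04. Those of differently numbered libraries correlated at -0.31 to 0.22. The same-numbered values lay within that range, which does not settle whether the samples were paired. The replicate block over the 12 libraries gave 856 genes at 4 °C and 1 in the interaction, and the replicate block in the 6 libraries at 4 °C alone gave 0 calls, higher, lower or lncRNA, in edgeR, with 3137 genes at an unadjusted p under 0.05. Size factors, other filters, batch as a term and no minimum fold change left the counts at 4 °C within 1.5 times. Signs turned for 3 genes that were not called. Lep was at 0.41 with replicates 1 and 2 only and ranged from -1.43 to 1.02 when a library was left out, Adcy3 from -0.062 to 0.27 and Srebf1 from -0.51 to 0.21. The cause of these shifts was not tested. The standard errors after ± came from the quasi-likelihood fit and include the spread between libraries. Genes under about 1 CPM rest on few counts in the shallower libraries.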

Other observations

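Of the 18 genes that HFD replicate 1 at 4 °C held at over 4 times the level of every other library, those described next were named after their values were seen, and none of them was called. Fgf21, a hormone of the fasting and stress response, was at 35.2 CPM in that library and at no more than 2.77 CPM in any of the other 11 (log2 fold change of HFD against NCD at 4 °C 2.72, adjusted p = 0.0972 in edgeR's quasi-likelihood test). Trib3, a pseudokinase induced by ATF4, was at 48.4 CPM there and at no more than 10.1 CPM elsewhere (adjusted p = 0.0769). Cth, which makes cysteine, was at 29.8 CPM against at most 3.19 CPM, and Slc7a1, an importer of cationic amino acids, at 34.0 CPM against at most 7.02 CPM. S100a9, a neutrophil protein, was at 7.16 CPM against at most 0.886 CPM. Cyp2b10, a xenobiotic-inducible cytochrome, was at 195.0 CPM against at most 18.6 CPM.

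Asns, Chac1 and Mt1, also named after their values were seen, were not among the 18 genes. Asns, the asparagine synthetase, was at 130.7 CPM in HFD replicate 1 at 4 °C and at no more than 80.6 CPM elsewhere, and Chac1, a glutathione-degrading enzyme, was at 12.8 CPM in it and at 13.8 CPM in NCD replicate 2 at 4 °C. The metallothionein gene Mt1, which responds to metals and glucocorticoids, was highest in NCD replicate 2 at 4 °C, at 253.8 CPM, against 149.7 CPM in HFD replicate 1.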
